A study of Homo sapiens with 3 samples.

Results

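The siERRG3 library of H128 cells was compared with the siCont library of the same cells. H128 is a human small cell lung cancer (SCLC) line kept as an established culture. The members were chosen by their labels alone, siERRG3 as the knockdown and siCont as its control, and make up 2 of the 3 libraries of the series. The remaining library, siERRG2, carries another siRNA against the same gene and served only as a check. All 3 cultures were grown in RPMI1640 with 10% fetal bovine serum, and their total RNA was taken 48 h after transfection, with an siRNA against ESRRG for siERRG2 and siERRG3 and with what the labels call vehicle siRNA for siCont. The sources do not settle which of the ESRRG siRNAs of the study the siERRG3 library received. The study asked which transcripts depend on ERRγ in these cells. With 1 library per group, no difference below has a replicate check, no test between the conditions could be made, and every interval compares 2 libraries and covers counting error only.

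ESRRG encodes estrogen-related receptor gamma (ERRγ), an orphan nuclear receptor that binds DNA without a known natural ligand and is best known for controlling genes of mitochondrial energy metabolism. An siRNA is a short RNA duplex whose guide strand is loaded into an Argonaute protein and directs cleavage of a fully matched transcript. A guide strand can also pair, through a short stretch near its 5′ end called the seed, with the 3′ UTRs of other transcripts, as a microRNA does.

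The deposited estimated read counts summed to 19861937 in siCont and 20016780 in siERRG3, and to 19900580 in siERRG2. Of 17448 genes in the table, 14031 had at least 10 counts in at least 1 library and were compared. A fold change is the difference in log2 CPM (counts scaled to library size) after TMM scaling, with a prior count of 2. Genes that differed by at least 1.2-fold, the threshold of the study, were called lower or higher. The ratio given beside some of them is that of the scaled counts, siERRG3 over siCont, with its 95% exact binomial interval. Where counts of a gene follow without library names, their order is siCont, siERRG3, siERRG2. The median log2 fold change over all genes was close to 0 in siERRG3, at -0.003. Of the 10 markers set for SCLC neuroendocrine tumor cells, none was at 0 in any of these libraries, and their summed count was 49874 in siCont and 53472 in siERRG3. The median log2 fold change of these markers was -0.09, with 2 lower and 2 higher. UCHL1, a ubiquitin hydrolase of neuroendocrine cells, had 16031 counts in siCont and 22326 in siERRG3, a larger gain than that of the sum, while SYP, synaptophysin, had 5279 and 3779 and CHGA, chromogranin A, 3282 and 2751. The epithelial adhesion molecule EPCAM was low, with 18 and 17. Fibroblast markers summed to 2574 and 2879 counts over 9 genes, 6 of which passed the low-count filter, most of them from COL1A2, with DCN at 8 in both libraries. Leukocyte markers summed to 195 and 242 counts over 8 genes. Endothelial markers summed to 1550 and 655 counts over 6 genes, 3 of which passed, and CDH5 alone held 1456 and 585 of these, while VWF was at 0 in both.

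ESRRG, the targeted gene on chromosome 1, had 806 counts in siCont, 230 in siERRG3 and 211 in siERRG2. Both knockdown libraries lay far below the control. In siERRG3 the log2 fold change was -1.82 and the ratio 0.281, with an interval of 0.241 to 0.325, so that the fall exceeded counting error. Its closest relative, ESRRA, which encodes ERRα, had 1184, 1169 and 1270 counts in siCont, siERRG3 and siERRG2, and its interval in siERRG3, 0.895 to 1.05, included 1. ESRRB, encoding ERRβ, was near the detection limit, with 4, 3 and 2 counts. ESRRG was the only 1 of the 8 ERR family and coactivator genes that passed the filter to be called in siERRG3.

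Outside ESRRG, the siERRG3 library differed widely from siCont. Of the 14031 genes, 3516 (25.1%) were at least 1.2-fold lower and 3257 (23.2%) at least 1.2-fold higher. At 1.5-fold these shares were 9.95% and 8.47%, and at 2-fold 372 (2.65%) and 409 (2.91%) genes. Low counts made up much of the higher side: among the 11396 genes with 50 or more counts on average in siCont and siERRG3, 205 (1.80%) were at least 2-fold lower and 120 (1.05%) at least 2-fold higher. In siERRG2, compared with the same siCont library, 19.2% were lower and 16.4% higher at 1.2-fold, 6.97% and 4.29% at 1.5-fold and 2.33% and 1.29% at 2-fold, and 92 (0.807%) and 29 (0.254%) of the genes with 50 or more counts passed 2-fold. The siERRG3 and siERRG2 comparisons share their control, so the values of both are given side by side and no overlap was read from them.

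Several of the genes with the largest falls in siERRG3 lay close to siCont in siERRG2, as the plot of the leading genes shows. These and the other leading genes below were picked on their siERRG3 change alone. That choice by itself favors siERRG2 values nearer to siCont. CALD1, encoding caldesmon, an actin- and myosin-binding protein, lies on chromosome 7 from 134727117 to 135016061 (GRCh38). It had 5101 counts in siCont, 985 in siERRG3 and 5338 in siERRG2, and the siERRG3 ratio was 0.190 (0.177 to 0.203). OCRL, an inositol polyphosphate 5-phosphatase on chromosome X from 129532736 to 129597606, had 2867, 635 and 3100 counts, and a ratio of 0.218 (0.200 to 0.237). For both genes siERRG2 lay within 0.10 of siCont on the log2 scale and siERRG3 stood apart. CD81, a tetraspanin of the cell surface, had 2414, 677 and 2571 counts, with a log2 fold change of -1.86. TAX1BP3, a small PDZ domain protein, had 435, 118 and 487 counts, with -1.89. GFPT1, which catalyses the first step of hexosamine synthesis, had 2117, 666 and 2086 counts, with -1.69. These 3 genes again differed by little between siCont and siERRG2, where their log2 fold changes were 0.07, 0.15 and -0.04.

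Other leading falls were smaller in siERRG2 than in siERRG3. CPLX1, complexin 1 of the synaptic vesicle fusion machinery, had 911 counts in siCont, 250 in siERRG3 and 743 in siERRG2, with a siERRG3 log2 fold change of -1.88. LRRTM2, a postsynaptic adhesion protein, had 393, 101 and 355 counts, with -1.96. CLSTN2, calsyntenin 2, had 4132, 1221 and 3296 counts, with -1.78, or -1.26 from the deposited FPKM values. CAMK2N1, an inhibitor of the kinase CaMKII, had 5961, 1781 and 4882 counts, with -1.77. NRN1, neuritin, had 809, 252 and 662 counts, with -1.70. In these 5 genes siERRG2 lay below siCont by at most 0.34 on the log2 scale, much less than siERRG3. Among genes averaging 1000 or more counts, NIPSNAP2, a mitochondrial protein, had 2302, 763 and 2049 counts and a ratio of 0.326 (0.300 to 0.354).

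For a further group the siERRG2 library was also lower than siCont, by more than 1.5-fold. VWA5B1 had 472 counts in siCont, 115 in siERRG3 and 231 in siERRG2. RAB26, a small GTPase of secretory granules, had 1103, 318 and 499. CACNA2D2, an auxiliary subunit of voltage-gated calcium channels, had 3159, 1038 and 1490. DTX4, an E3 ubiquitin ligase of the Deltex family, had 3361, 971 and 2159, and ITM2B, a transmembrane protein, had 1872, 615 and 1190. In all 5 the siERRG3 count was the lowest of the 3, an order that ranking genes on their siERRG3 fall favors. The siERRG3 log2 fold changes ran from -2.04 for VWA5B1 to -1.63 for CACNA2D2 and ITM2B. CCZ1B and its near-identical copy CCZ1, which divide reads between them and act in lysosomal trafficking, summed to 2742, 959 and 2755 counts, a siERRG3 ratio of 0.344 (0.319 to 0.370). This pair was summed after its values were seen.

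Genes lower in siERRG3 held a certain short sequence in the 3′ UTR more often than others did. All 16384 possible 7-base sequences were searched in the GENCODE v44 3′ UTRs (GRCh37, 1 transcript per gene, sense strand) of the 11190 genes with an average of 50 or more counts and an annotated 3′ UTR, and ranked by how much lower the genes that hold a sequence were than those that do not, weighted by the square root of the number of genes. AATCACA ranked first in siERRG3. It lies in the 3′ UTR of 1649 genes (14.7%), whose median log2 fold change was -0.23, compared with 0.01 in the 9541 genes without it. In siERRG2 the same sequence ranked 14266 of 16384, with medians of 0.02 and 0. ATCACAA, which overlaps it, ranked second in siERRG3, and the reverse complement TGTGATT ranked 756. The search was chosen with earlier results of these data known, and genes are not independent replicates.

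Sites in 7 of the leading falls are shown here with 10 bases on each side, in the sense of the transcript, with AATCACA in capitals, to show what surrounds the shared letters. CALD1 holds 2, at chr7:134653248-134653274 and chr7:134653899-134653925 on the plus strand. The others lie in OCRL (chrX:128724947-128724973, plus), CD81 (chr11:2418564-2418590, plus), CAMK2N1 (chr1:20809208-20809234, minus), GFPT1 (chr2:69552429-69552455, minus), TAX1BP3 (chr17:3566357-3566383, minus) and NIPSNAP2 (chr7:56066907-56066933, plus), all GRCh37 coordinates in 3′ UTR exons. In each site printed here except those of CALD1, the next base is an A. NIPSNAP2 holds another site, not printed, without that A. The sites of CACNA2D2, ITM2B, CPLX1 and RAB26, leading falls not shown, lack it as well. CLSTN2 and LRRTM2, also not shown, hold sites of both kinds.
CALD1, first site: tatatttaatAATCACAgtctagagat
CALD1, the other site: aaaattaaaaAATCACActatattaat
OCRL: gatgagagagAATCACAatcagaatgg
CD81: cttcaactgtAATCACAacatcctgac
CAMK2N1: aaaaaaatgtAATCACAagagtgccaa
GFPT1: tgttctttaaAATCACAacacagagct
TAX1BP3: gtatttttttAATCACAagtttgatac
NIPSNAP2: aaatttacatAATCACAagaaaggaaa

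Of the 15 largest falls, 11 have AATCACA in the 3′ UTR, among them CALD1, OCRL, CD81, CLSTN2, CPLX1, LRRTM2 and RAB26. Of the 4 without it, VWA5B1, DTX4 and NRN1 hold ATCACAA, and ESRRG holds only the 6-base core ATCACA. Of the 10 largest falls among genes averaging 1000 or more counts, 9 have the 7-base sequence. None of the 15 largest rises and none of the 10 largest rises at high counts have it. Among these rises, U2AF1L5 and C6orf48 have no annotated 3′ UTR and so lie outside the 11190 genes. Other 3′ UTRs were short, such as 83 bases for EIF3CL and 175 for PYGL. Since 14.7% of the 11190 genes hold AATCACA, the leading falls lay far above that share and the leading rises below it, as a description without a test. The sequence was ranked first on these same siERRG3 fold changes. An excess among the falls and a deficit among the rises therefore follow from that choice and are not a separate check of it.

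In the siERRG3 values that ranked the sequence first, the share of genes with AATCACA followed the size of the fall, which restates that ranking. It was 59.3% (16 of 27 genes) among genes at least 3-fold lower in siERRG3, 46.8% (81 of 173) at 2 to 3-fold lower, 35.2% at 1.5 to 2-fold lower and 23.8% at 1.2 to 1.5-fold lower. It was 11.5% among genes that differed by less than 1.2-fold and between 5.42% and 6.93% in the 3 classes of genes that were higher. In siERRG2 the share was 6.25% (1 of 16 genes) at 3-fold lower and between 9.21% and 16% in every other class. Genes with the sequence were at least 1.2-fold lower in 47.4% (781 of 1649) and higher in 8.67%, and those without it in 20.2% and 21.2% of cases. The sequence was thus present in 781 of the 2713 lower genes with a 3′ UTR and absent from the other 1932.

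**Figure D1:**
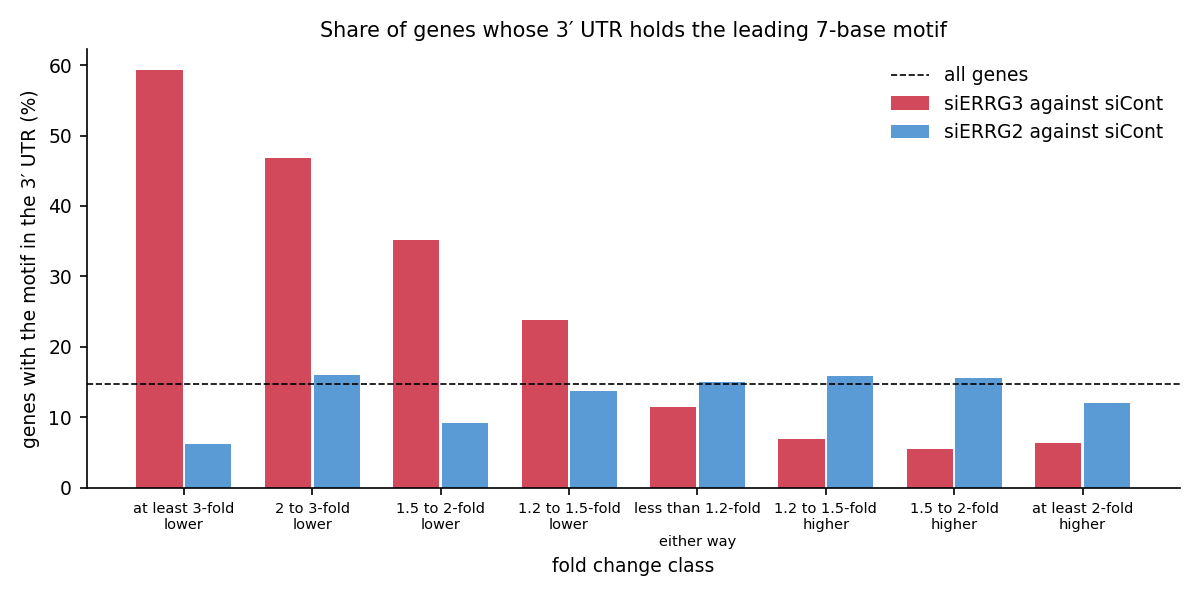
Share of genes (y axis, percent) whose 3′ UTR holds AATCACA, by class of fold change against siCont (x axis), in siERRG3 (red bars) and siERRG2 (blue bars); the dashed line is the share over all 11190 genes, 14.7%, and there are no error bars since each comparison is 1 library against 1. In siERRG3 the share declines from 59.3% in the strongest falls to 6.31% among genes at least 2-fold higher, and in siERRG2 it shows no such decline. AATCACA was chosen from the siERRG3 values shown.

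Longer matches in the 3′ UTR went with a larger share of lower genes in siERRG3, the library whose values ranked the sequence first. Genes with no ATCACA in the 3′ UTR were at least 1.2-fold lower in siERRG3 in 17.3% of 7341 cases. The share was 27.7% with ATCACA alone, 35.9% with ATCACAA, 44.5% with AATCACA not followed by an A, and 53.4% of 530 genes with the 8 bases AATCACAA. The median log2 fold changes in the same order were 0.04, -0.07, -0.13, -0.20 and -0.30. In siERRG2 the shares were 15.9%, 17.8%, 13.9%, 13.9% and 13.0%, with no increase along the order. Having 2 sites rather than 1 made little difference, with 51.2% of 246 genes and 46.6% of 1336 genes lower. Long 3′ UTRs hold any short sequence more often, so the genes were also divided into 4 equal bins by 3′ UTR length. In the bin from 570 to 1418 bases, 18.6% of genes with no core and 67.8% of the 59 genes with the 8 bases were lower, and in the longest, from 2920 bases, 20.2% and 48.4%. In the shortest bin, up to 570 bases, few genes have any match, and the 3 classes with 7 or 8 bases were alike, at 58.3%, 56.4% and 56.2%, beside 15.2% with no core. Within the coding sequence, among genes without the core in the 3′ UTR, the shares ran from 15% with no match to 31.6% with the 8 bases, with 24.5% for ATCACAA and 22.8% for AATCACA between them. The median log2 fold changes of the first and last of these classes were 0.08 and -0.12. The study's supplement gives sequences for its ESRRG siRNAs, held here only as letters read from page images, and they were not compared with these sites. Which of them siERRG3 received is not settled by the sources, and pairing of an siRNA seed with such sites was not tested as a cause.

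**Figure D2:**
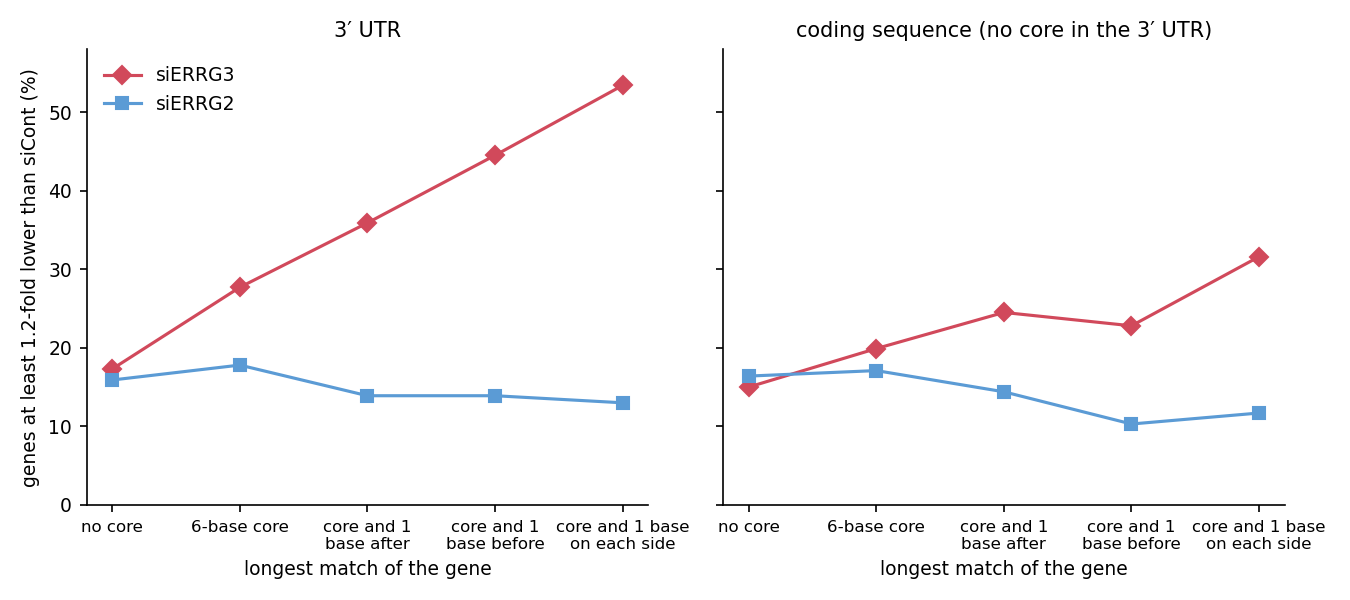
Percent of genes at least 1.2-fold lower than siCont (y axis) by the longest match in the gene (x axis: no core, the 6-base core, the core with 1 more base after or before it, and the core with 1 base on each side), for the 3′ UTR (left) and for the coding sequence of genes with no core in the 3′ UTR (right); red diamonds are siERRG3, blue squares siERRG2. In the 3′ UTR the siERRG3 share climbs from 17.3% to 53.4%, in the coding sequence from 15% to 31.6%, and the siERRG2 shares stay between 10.3% and 17.8%. Neither panel is divided by length.

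Longer transcripts were lower more often. In 4 equal bins of transcript length from short to long, the median log2 fold change in siERRG3 was 0.09, 0.02, -0.06 and -0.12, and the share of lower genes went from 14.6% to 33.9%. In siERRG2 that share went from 12.8% to 17.3%. These bins were not divided by the motif, which longer 3′ UTRs hold more often. Among genes with no core in the 3′ UTR, the share of lower genes in siERRG3 was 15.2%, 18.6%, 17.3% and 20.2% in the 4 bins of 3′ UTR length.

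The genes of the RNA interference machinery encode the enzymes that make and use small RNAs. Of the 16 on the list, 4 were lower (25%, the share of all genes being 25.1%) and 0 higher in siERRG3, with a median log2 fold change of -0.10. AGO1, 1 of the 4 Argonaute proteins, had 1588 counts in siCont, 626 in siERRG3 and 1549 in siERRG2, a ratio interval of 0.353 to 0.425. DICER1, the endonuclease that cuts microRNA precursors, had 1968, 910 and 1580 counts, with an interval of 0.420 to 0.492. The other lower genes were RAN, at -0.32 on the log2 scale, and TSNAX, at -0.29, whereas AGO2, the slicing Argonaute, stood at 0.06. AGO4 had a log2 fold change of -0.24, less than 1.2-fold. The DICER1 3′ UTR has 3 copies of AATCACA, while AGO1 has none in 10925 bases but holds ATCACAA. Those of DICER1 lie at chr14:95556566-95556592, chr14:95556212-95556238 and chr14:95554765-95554791 (GRCh37, minus strand), and are shown as those of a gene with 3 sites.
DICER1, first site: gctttgtttaAATCACAagagtgcttt
DICER1, the next site: catgttggtgAATCACAttttagtttt
DICER1, last site: gatcaagtttAATCACAaatctcttaa

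On the higher side, the leading genes were mostly of low count in siCont. RNF212, an E3 ligase of meiotic recombination, had 10 counts in siCont, 105 in siERRG3 and 18 in siERRG2, a ratio of 10.3 whose interval was wide, 5.40 to 22.2. FGF11, an intracellular fibroblast growth factor homologue, had 78, 427 and 74 counts, with a ratio of 5.38 (4.22 to 6.94). ALPL, tissue-nonspecific alkaline phosphatase, had 138, 641 and 112 counts, with a ratio of 4.57 (3.79 to 5.53). TGFBR3, the TGF-beta co-receptor betaglycan, had 96, 448 and 82 counts, with a ratio of 4.59 (3.67 to 5.78). For these last 3 genes siERRG2 lay below siCont by at most 0.31 on the log2 scale, and siERRG3 was the only library that was high.

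Several other leading rises had the same form. PYGL, the liver glycogen phosphorylase, had 168 counts in siCont, 528 in siERRG3 and 148 in siERRG2. EDN2, the vasoconstrictor peptide endothelin 2, had 37, 147 and 30. AIFM2, a coenzyme Q reductase that limits lipid peroxidation, had 88, 283 and 63. Their siERRG3 log2 fold changes were 1.62, 1.91 and 1.64. C19orf57 had 237, 826 and 248 counts, CNKSR1, a scaffold of Ras signalling, had 27, 127 and 30, and RFTN1, the lipid raft protein raftlin, had 21, 108 and 16. SLC6A17, a synaptic vesicle amino acid transporter, had 42, 160 and 55 counts. HYDIN, a protein of motile cilia, had 23, 95 and 29, and its near-identical copy HYDIN2 has no separate count. For each of these genes the siERRG3 count was the highest, and the siERRG2 count was within 1.5-fold of siCont. Ranking genes on their siERRG3 rise favors such an order.

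In 2 leading rises the reads may have been divided differently between near-identical genes. U2AF1L5 had 36, 244 and 1 counts, but summed with U2AF1, a splicing factor subunit, the siERRG3 ratio was 1.16 (1.11 to 1.22). EIF3CL had 432, 1504 and 403, but summed with EIF3C the ratio was 1.09 (1.06 to 1.11). Their rises are therefore uncertain. Of the 47 read-through genes that passed the filter, which join neighbouring genes and were kept out of the ranking, 12 were lower and 15 higher. The shares over all genes were 25.1% and 23.2%.

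At high counts the rises were smaller and included regulators of stress and growth arrest. ATF5, a transcription factor of the integrated stress response, had 1996 counts in siCont, 5303 in siERRG3 and 1656 in siERRG2, a ratio of 2.61 (2.48 to 2.75). GADD45A, a stress-induced gene of growth arrest and DNA repair, had 820, 1964 and 975 counts, with a ratio of 2.36 (2.17 to 2.56). CEBPB, a bZIP transcription factor, had 684, 1562 and 896 counts, with a ratio of 2.25 (2.05 to 2.46). RASSF1, a tumor suppressor of the Hippo and Ras pathways, had 538, 1496 and 517 counts, with a ratio of 2.73 (2.48 to 3.02). VGF, a secreted neuropeptide precursor, had 1645, 3253 and 2146 counts, and TRMT61A, the catalytic subunit of a tRNA methyltransferase, had 1083, 2243 and 1102. In ATF5, RASSF1 and TRMT61A the siERRG2 count was close to or below siCont, and in GADD45A, CEBPB and VGF it lay between siCont and siERRG3. CCNB1IP1, C6orf48 and PITHD1 had siERRG3 log2 fold changes of 0.95, 1.03 and 0.89. MAGEA2, a cancer-testis antigen, shares reads with MAGEA2B, and their sum had a ratio of 1.69 (1.59 to 1.80).

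ATF4 is the transcription factor of the integrated stress response, which cells mount when amino acids are short or translation initiation is blocked. Of 32 ATF4 stress response genes, 15 were higher and 2 lower in siERRG3 (46.9% and 6.25%, beside 23.2% and 25.1% of all genes), 5 of them by at least 2-fold, and the median log2 fold change was 0.25. In siERRG2 the median was 0.15. ATF4 itself had 7456 counts in siCont, 10953 in siERRG3 and 7860 in siERRG2. DDIT3, encoding the apoptosis-linked factor CHOP, had 321, 767 and 314. NUPR1, a stress-induced chromatin protein, had 366, 1021 and 427. All 3 were high in siERRG3 alone, and NUPR1 although its 3′ UTR holds 2 copies of AATCACA. CHAC1, which degrades glutathione, differed from them in being high in both knockdown libraries, with 105, 284 and 235 counts. The amino acid transporter subunits SLC3A2 and SLC7A5 were higher in siERRG3, at 0.59 and 0.39, and not in siERRG2, at -0.18 and -0.39. Not all of the list moved this way: the serine synthesis enzyme PHGDH had a log2 fold change of -0.18 and asparagine synthetase, ASNS, -0.13, and the mitochondrial enzymes SHMT2, at -0.63, and ALDH1L2, at -0.31, were the 2 lower genes.

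The chaperones of the cytosol and of the endoplasmic reticulum (ER) differed in direction. Of 21 heat shock genes, 12 were higher and 1 lower in siERRG3 (57.1% and 4.76%, beside 23.2% and 25.1% of all genes), with a median of 0.31. In siERRG2 2 were higher and 1 lower, beside 16.4% and 19.2% of all genes. HSPA8, the constitutive HSP70, had 69986 counts in siCont, 96153 in siERRG3 and 69971 in siERRG2. HSPB1, the small heat shock protein HSP27, had 7581, 11804 and 6124. The inducible HSP70 genes HSPA1A and HSPA1B, which share reads, summed to 5702, 9598 and 6287, a ratio of 1.66 (1.60 to 1.71). CHORDC1, an HSP90 cochaperone, had a log2 fold change of 0.70, and HSPA4L, an HSP110 relative with AATCACA in its 3′ UTR, was the lower gene at -0.64. Of 21 ER chaperone and unfolded protein response genes, by contrast, 9 were lower and 1 higher (42.9% and 4.76%), with a median of -0.22. HSPA5, the ER chaperone BiP, had 15312, 12181 and 11421 counts, lower in both knockdown libraries. EDEM1 and SEL1L, which act in the disposal of misfolded ER proteins, had log2 fold changes of -0.69 and -0.62 in siERRG3, and 0.06 and -0.13 in siERRG2. ERN1, the stress sensor IRE1, was the higher gene, with 185, 237 and 229 counts.

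Immediate early genes, whose transcription is induced within minutes of a stimulus, were higher in 16 of 27 and lower in 2 of 27 cases in siERRG3 (59.3% and 7.41%, beside 23.2% and 25.1% of all genes), with a median of 0.37. The siERRG2 library was close to this, with 14 higher, 4 lower and a median of 0.28. Of all genes, 16.4% were higher and 19.2% lower in siERRG2. ARC, a neuronal activity-regulated gene, had 118 counts in siCont, 386 in siERRG3 and 104 in siERRG2, and was high in siERRG3 alone. JUNB, a subunit of the AP-1 transcription factor, had 2978, 4831 and 2938. ATF3, an induced partner of AP-1, had 271, 510 and 417, and DUSP5, a phosphatase of ERK, had 117, 238 and 203, so both were high in both knockdown libraries. KLF6, a zinc finger factor, was lower in siERRG3 at -0.47 and stood at -0.03 in siERRG2.

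Histone genes had the highest median of the 31 lists, 0.56, compared with 0.01 in siERRG2. Of the 35 that passed the filter 27 were higher (77.1%), 8 of them by at least 2-fold, and 3 lower (8.57%). Most were at low counts, where calls are more frequent: 39.2% of all genes averaging under 50 counts were higher, beside 23.2% overall. Only 12 of the histone genes averaged 50 or more, with a median of 0.59. Of those with more, HIST1H2BD had 271 counts in siCont, 514 in siERRG3 and 207 in siERRG2, HIST1H2AC had 270, 480 and 239, and HIST1H1C, a linker histone, had 893, 1268 and 1285. HIST1H2BD and HIST1H2AC were thus high in siERRG3 alone, and HIST1H1C in both knockdown libraries. The exception at high count was HIST1H2BK, with 1567, 1072 and 1365. The summed count of the list went from 4465 in siCont to 5599 in siERRG3. HIST2H2AA3 and HIST2H2AA4 are copies listed with the same count of 360 in siERRG3, so they are not 2 measurements. None of the 31 histone genes that passed the filter and have an annotated 3′ UTR holds AATCACA there.

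**Figure D3:**
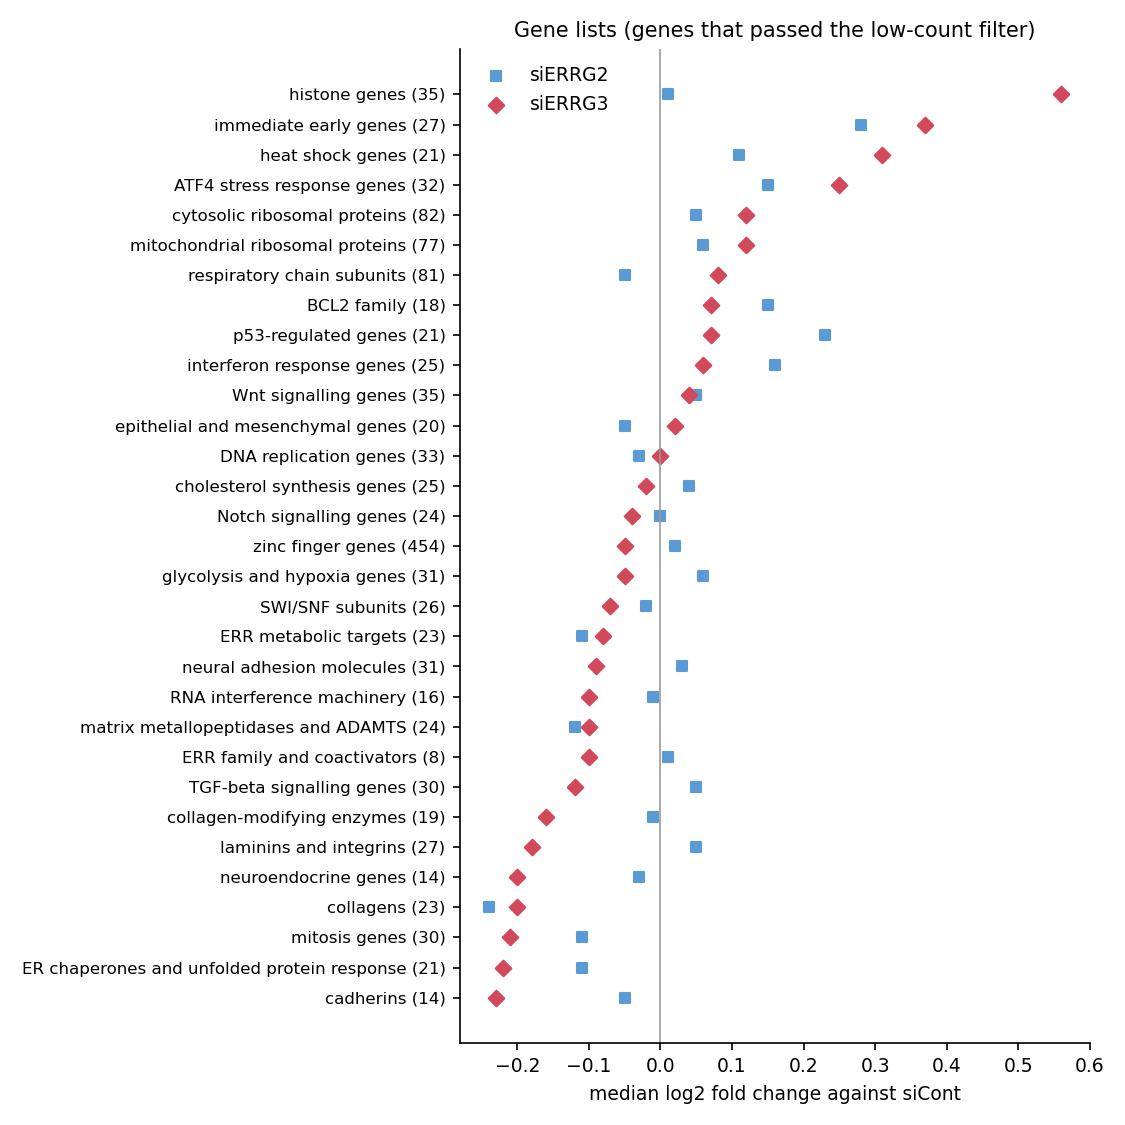
Median log2 fold change against siCont (x axis) of 31 gene lists in siERRG3 (red diamonds) and siERRG2 (blue squares); the number in brackets is that of genes kept by the low-count filter, and no error bars are drawn since each group is 1 library. Histone, immediate early, heat shock and ATF4 stress response genes have the highest siERRG3 medians, from 0.25 to 0.56, and cadherins, ER chaperones, mitosis genes and collagens are among the lowest, from -0.23 to -0.20.

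Genes of ERRγ's known field, energy metabolism, differed little. Of 23 ERR metabolic targets that passed the filter, 4 were lower (17.4%, beside 25.1% of all genes) and 0 higher in siERRG3, with a median of -0.08 and none past 2-fold, and the median in siERRG2 was -0.11. ACADM, the medium-chain acyl-CoA dehydrogenase of fatty acid oxidation, had 2745 counts in siCont, 2214 in siERRG3 and 2542 in siERRG2. FABP3, a fatty acid-binding protein, had 17216, 14341 and 22093, so that siERRG2 and siERRG3 lay on opposite sides of siCont. SDHB, a subunit of complex II, was slightly higher in siERRG3, at 0.26. Among 81 respiratory chain subunits 4 were lower and 5 higher (4.94% and 6.17%, beside 25.1% and 23.2% of all genes), with a median of 0.08. ATP5F1A, the alpha subunit of ATP synthase, stood out within this list with 13736, 8268 and 11872 counts, and its 3′ UTR holds 1 AATCACA. PPARGC1A, the coactivator PGC-1α, had 149, 133 and 192 counts, and its interval in siERRG3, 0.689 to 1.12, included 1.

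Promoters were searched for the letters of the ERR response element, TCAAGGTCA, and for its shorter core AAGGTCA, on both strands, from 250 bases before to 50 bases after the start (RefSeq, GRCh38.p14). The shorter motif is contained in the longer. A promoter was found for 11295 genes that passed the filter. TCAAGGTCA was in 20 of them (0.177%), in 5 of 2762 (0.181%) that were at least 1.2-fold lower in siERRG3 and in 9 of 2537 (0.355%) that were higher. AAGGTCA was in 2.54% of all these promoters, in 2.39% of the lower and in 2.92% of the higher genes. Among genes at least 2-fold lower, the longer motif was in 0 of 270 and the shorter in 5 (1.85%), and among those at least 2-fold higher in 3 of 299 (1%) and 14 (4.68%). The median log2 fold change of the 20 genes with TCAAGGTCA was 0.24. A match is a description of letters and not a binding site, and binding elsewhere in a gene was not looked at.

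The extracellular matrix and its receptors were the field in which the study placed its question. Collagens form the fibrils and basement membranes of the matrix. Of 23 collagen genes that passed the filter, 11 were lower and 4 higher in siERRG3 (47.8% and 17.4%, beside 25.1% and 23.2% of all genes). The numbers in siERRG2 were also 11 and 4, though not all of the same genes, beside 19.2% and 16.4% of all genes there. The siERRG3 median was -0.20, and -0.47 among the 11 genes averaging 50 or more counts. COL19A1, a fibril-associated collagen, had 2422 counts in siCont, 1137 in siERRG3 and 2661 in siERRG2, or a log2 fold change of -0.97 from FPKM values in place of -1.11. COL16A1, of the same class, had 3180, 2118 and 3057. For both the siERRG3 library alone was low, whereas COL6A1, a chain of the microfibrillar collagen VI, had 376, 131 and 186 counts and was low in both knockdown libraries. COL9A2 moved the other way, with 96, 205 and 62 counts, and COL1A2, a chain of collagen I, had 2043, 2505 and 2896. Of 19 collagen-modifying enzymes 6 were lower and 3 higher (31.6% and 15.8%), none past 2-fold. PLOD1, a lysyl hydroxylase, had a log2 fold change of -0.35 and BMP1, the procollagen C-proteinase, -0.40, while SERPINH1, the collagen chaperone HSP47, had 0.48.

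Integrins, which couple matrix to cytoskeleton, included clear single-library falls. In the list of laminins and integrins, 11 of 27 were lower and 7 higher (40.7% and 25.9%), with a median of -0.18, and -0.41 among the 12 averaging 50 or more counts. ITGAV, the alpha-V integrin, had 872 counts in siCont, 453 in siERRG3 and 995 in siERRG2. ITGA9, the alpha-9 integrin, had 534, 237 and 588. LAMB1, the laminin beta-1 chain, had 2227, 1529 and 2085. Each was low in siERRG3 and near or above siCont in siERRG2. Of 24 matrix metallopeptidases and ADAMTS genes 10 were lower and 3 higher (41.7% and 12.5%), with a median of -0.10. MMP24, a membrane-type metallopeptidase, had 1021, 470 and 1072 counts, and MMP16, another of this type, 554, 369 and 482, its log2 fold change of -0.61 being -0.40 from FPKM values. MMP2, gelatinase A, lay higher, with 210, 344 and 222.

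Cell-cell adhesion showed the same mixture. Of 14 cadherins 6 were lower and 4 higher in siERRG3 (42.9% and 28.6%, beside 25.1% and 23.2% of all genes), with a median of -0.23, which became -0.52 over the 10 averaging 50 or more counts and -0.54 over the 9 without AATCACA. CDH5, the cadherin of endothelial junctions, had 1456 counts in siCont, 585 in siERRG3 and 1623 in siERRG2, a ratio interval of 0.358 to 0.435, although the other endothelial markers were at or near 0, apart from 59 and 38 counts of EGFL7 and 27 and 25 of PECAM1 in siCont and siERRG3. CDH23, a cadherin of hair cell tip links, had 779, 394 and 534. CDH22 and CDH24 stood at 0.20 and 0.41. Of 31 neural adhesion molecules 12 were lower and 7 higher (38.7% and 22.6%), with a median of -0.09. AATCACA lies in the 3′ UTR of 11 of the 31 and of 6 of the 12 lower genes. CNTN1, contactin 1, is 1 of them, with 4039, 1645 and 4635 counts. CNTN4, a relative of it, had 1043, 598 and 1404. In both of these contactins siERRG2 was higher than siCont, whereas CNTN2, contactin 2, was low in both knockdown libraries and lowest in siERRG2, with 1428, 689 and 416. L1CAM, the neural adhesion molecule L1, had 2511, 1524 and 1870, lower in both knockdown libraries.

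Mitosis genes past the fold used were lower in siERRG3, with none higher. Of 30, all above a mean of 50 counts, 12 were lower (40.0%, beside 24.2% of all genes at such counts) and 0 higher in siERRG3, with a median of -0.21, compared with 3 lower, 0 higher and -0.11 in siERRG2. At such counts 15.8% of all genes were lower and 12.6% higher in siERRG2. CCNA2, cyclin A2, which drives S phase and entry into mitosis, had 2313 counts in siCont, 1182 in siERRG3 and 2149 in siERRG2. BUB1, a kinase of the spindle checkpoint, had 1957, 1054 and 2023. MKI67, the proliferation marker Ki-67, had 9222, 5214 and 8149, and ASPM, a spindle pole protein, had 3156, 1719 and 2949. In all 4 siERRG2 was within 1.2-fold of siCont. Other central genes of the list were within 1.2-fold in siERRG3 too, with log2 fold changes of -0.11 for CDK1, -0.06 for TPX2 and 0.01 for CDC20. CCNA2 and BUB1 are the 2 genes of the list with AATCACA in the 3′ UTR, and without them the median was -0.19. CCNA2 has 2 copies close together, printed here because their windows overlap, at chr4:122737746-122737772 and chr4:122737730-122737756 (GRCh37, minus strand).
CCNA2, upstream site: aatttttataAATCACAaggtaaaaaa
CCNA2, downstream site: aaggtaaaaaAATCACAgaacagatgg

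DNA replication genes were near the share of all genes, 25.1%, with 8 of 33 lower (24.2%), 3 higher and a median of 0.00. MCM3, a subunit of the replicative helicase, was an exception, with 5670, 2684 and 5161 counts and a ratio interval of 0.444 to 0.487, and no AATCACA in its 3′ UTR. CCNE1, cyclin E1, was higher, with 630, 1079 and 791. Of 21 p53-regulated genes 5 were lower and 6 higher in siERRG3 (23.8% and 28.6%, beside 25.1% and 23.2% of all genes), with a median of 0.07. In siERRG2 9 of them were higher, with a median of 0.23, and 16.4% of all genes were higher there. ZMAT3, an RNA-binding p53 target with AATCACA, had 515, 249 and 643 counts, and the polo-like kinase gene PLK3 had 96, 217 and 140. In the BCL2 family, which controls mitochondrial apoptosis, 7 of 18 were lower and 6 higher in siERRG3 (38.9% and 33.3%). The effector BAK1 had 378, 724 and 453 counts and PMAIP1, encoding NOXA, had 594, 1006 and 842.

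Neuroendocrine genes kept high counts with some members lower. Of 14 that passed the filter 5 were lower and 2 higher in siERRG3 (35.7% and 14.3%, beside 25.1% and 23.2% of all genes), with a median of -0.20. NEUROD1, a lineage transcription factor of SCLC, had 7395 counts in siCont, 4073 in siERRG3 and 7020 in siERRG2, a ratio interval of 0.521 to 0.563. SYP, synaptophysin of synaptic vesicles, had 5279, 3779 and 5169. SNAP25, a SNARE protein of vesicle fusion, had 3562, 2297 and 5649, so that siERRG2 and siERRG3 lay on opposite sides of siCont. DLL3, an inhibitory Notch ligand, had 389, 578 and 486. NEUROD1 carries 1 AATCACA in its 3′ UTR, at chr2:182542188-182542214 (GRCh37, minus strand), shown as the site of a lineage gene.
NEUROD1: gggataacaaAATCACAagcaataatt

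Signalling lists contained both lower and higher genes. Of 30 TGF-beta signalling genes 9 were lower and 5 higher (30.0% and 16.7%, beside 25.1% and 23.2% of all genes), with a median of -0.12 that became 0.02 over the 20 without AATCACA, 6 of the 9 lower genes having the sequence. SKI, a repressor of SMAD signalling, had 4314 counts in siCont, 2020 in siERRG3 and 3910 in siERRG2. ID2, an inhibitor of bHLH factors, had 3590, 1686 and 4063. Both hold AATCACA, and TGFBR3, the leading rise described above, does not. Of 35 Wnt signalling genes 11 were lower and 12 higher (31.4% and 34.3%). CTNNB1, encoding beta-catenin, had 4041, 2236 and 4215 counts, and TCF7L2, its DNA-binding partner, had 695, 347 and 865, so both were lowest in siERRG3 and higher than siCont in siERRG2. Of 24 Notch signalling genes 6 were lower and 9 higher (25% and 37.5%). MAML3, a Notch coactivator, had 1563, 832 and 1424 counts, and HES6, a bHLH factor of neuronal differentiation, had 924, 1708 and 1035.

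In the lists of chromatin remodelling and of 2 metabolic pathways, the shares of lower genes lay between 24% and 32.3%, beside 25.1% of all genes. Of 26 SWI/SNF subunits 7 were lower (26.9%) and 3 higher, with a median of -0.07. PBRM1, a subunit of the PBAF complex, had 2730 counts in siCont, 1474 in siERRG3 and 2854 in siERRG2. SMARCA2, an ATPase of the complex, had 4082, 2516 and 3999, with a log2 fold change of -0.72, or -0.58 from FPKM values. Of 25 cholesterol synthesis genes 6 were lower (24%) and 4 higher, led by LSS, lanosterol synthase, with 5346, 3355 and 5029. Of 31 glycolysis and hypoxia genes 10 were lower (32.3%) and 4 higher, led by MXI1, an antagonist of MYC, with 1475, 796 and 1804, and PFKL, the liver phosphofructokinase, with 2274, 1403 and 1827. LSS and MXI1 hold AATCACA and PFKL does not.

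Most ribosomal protein genes differed by less than 1.2-fold in siERRG3. Of 82 for the cytosolic ribosome 11 were higher and 3 lower (13.4% and 3.66%, beside 23.2% and 25.1% of all genes), none past 2-fold, with a median of 0.12. Of 77 for the mitochondrial ribosome 20 were higher and 4 lower (26% and 5.19%), also with a median of 0.12. MRPL17 was the lowest of these, with 948 counts in siCont, 418 in siERRG3 and 1233 in siERRG2, and MRPL1 was the highest of those averaging 50 or more counts, with 659, 1259 and 811. Interferon response genes, which long double-stranded RNA can induce, were higher in 10 and lower in 4 of 25 cases in both libraries (40.0% and 16%). Of all genes, 23.2% were higher and 25.1% lower in siERRG3, and 16.4% and 19.2% in siERRG2. The list medians were 0.06 in siERRG3 and 0.16 in siERRG2. Only 15 of the 25 averaged 50 or more counts, with a siERRG3 median of 0.01. Among all genes averaging under 50 counts, 39.2% were higher in siERRG3. USP18, an interferon-induced protease, had 70, 123 and 125 counts. Of 20 epithelial and mesenchymal genes 5 were lower and 6 higher, with VIM, vimentin, at 1091, 1488 and 1506 counts and SPARC, a matricellular protein, at 1390, 874 and 1222. Of 454 zinc finger genes 118 were lower and 79 higher, with a median of -0.05, and 45 of the 118 lower ones hold AATCACA.

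Among the 50 Hallmark sets annotated in the table, the lowest medians in siERRG3 were those of apical junction, -0.17 over 154 genes, hedgehog signaling and mitotic spindle, both -0.13, and myogenesis, -0.12. The highest were those of MYC targets V2, 0.16 over 58 genes, interferon alpha response, 0.11, allograft rejection and MYC targets V1, both 0.10, and unfolded protein response, 0.09. In the order named, the siERRG2 medians were -0.09, 0.01, -0.08 and -0.02 for the low sets. For the high sets they were 0.06, 0.09, 0.00, 0.01 and 0.03. In the apical junction set 62 genes were lower and 30 higher in siERRG3 (40.3% and 19.5%, beside 25.1% and 23.2% of all genes). The numbers in siERRG2 were 50 and 12, beside 19.2% and 16.4% of all genes there. In MYC targets V2 4 were lower and 13 higher in siERRG3 (6.90% and 22.4%), the latter near the share of all genes. The unfolded protein response set, which mixes ATF4 genes such as CHAC1 and ATF3 with ER genes such as EDEM1 and HYOU1, had 17 lower and 22 higher of 110.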

How the data were processed

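RNA-seq was analysed for 3 libraries of H128 cells, 1 per group, grouped by their titles. According to the methods, reads were aligned by the authors to GRCh37/hg19 with BWA and Bowtie 2. The submitters' processing notes name TopHat2, HTSeq and DESeq2, and the builds GRCh38, hg19 and hg38. The table's coordinates are those of GRCh38, and the sources used here do not settle which program gave the deposited counts. The labels describe paired-end and the methods single-end libraries. The estimated counts (expected counts) deposited by the authors were not normalized, and about 54.0% to 54.9% were whole numbers. An expression value that behaves as FPKM, with no unit named, was also deposited, with the authors' log2 ratios, p-values and adjusted p-values against siCont, which hold their comparisons and were not used.

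Counts were rounded, genes reaching 10 counts in any library were kept, and libraries were scaled with TMM (edgeR 4.0.16, R 4.3.3), with factors of 0.994 for siCont and 1.003 for siERRG2 and siERRG3. Log2 CPM used a prior count of 2. With 1 library per group there was no test. Ratios have 95% Clopper-Pearson intervals (SciPy 1.17.1), which cover counting error only. Depth was alike in the libraries, and the interval was 0.241 to 0.325 for the ratio of ESRRG, with 806 counts in siCont. 3′ UTRs were those of 1 GENCODE v44lift37 transcript per gene, found for 98.2% of genes averaging 50 or more counts. The genes named were taken from ESRRG, ESRRA and ESRRB, the 15 largest falls and rises among genes averaging 50 or more counts and the 10 among those of 1000 or more, ranked on the interval bound nearest to 1, and the 2 lowest and 2 highest of each list, of which not all are printed. Other list members, the Hallmark leaders and the near-copy sums were named after their values were seen. The members and lists were chosen with earlier results of these data known. Alternatives were DESeq2 1.42.0 size factors, CPM from totals, TMM over siCont and siERRG3 alone, a prior count of 0.5, FPKM with a pseudocount of 0.1, other filters and folds, a counting interval that excludes 1, and, added after the data were seen, leaving out genes with AATCACA and 4 other forms of the motif comparison. The computation was tested on simulated data of 17448 genes for siERRG3 against siCont, in which 100% of 200 changed genes were called in the true direction and 95.7% of intervals of unchanged genes held 1.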

Additional observations from a re-analysis of the deposited data

How the results depend on the processing

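No paired analysis was possible because each group has 1 library and the labels carry no replicate numbers, and for the same reason no replicate could be left out. The numbers of genes 1.2-fold lower and higher in siERRG3, 3516 and 3257, stayed within 1.5 times under 18 of 22 alternatives, the exceptions being 1396 and 1188 at 1.5-fold and 372 and 409 at 2-fold, which follow from the stricter fold. Without filter they were 4603 and 4578, and without genes with AATCACA 2632 and 3011. The median over all genes lay between -0.003 and 0.012 on the log2 scale under the scalings tried. Of 676 alternative values for 169 named genes, 672 moved by less than the counting interval, and the 4 others, given in the text, came from FPKM values. Among named genes past 1.2-fold, 0 values changed sign. Sign changes of named genes closer to siCont were not counted. Of 186 alternative list medians, 184 moved by less than the counting error of a typical member, taken as the median over members. The 2 others, both of cadherins, moved from -0.23 to -0.52 and -0.54. That limit is wide for lists of low counts. Over genes averaging 50 or more counts, collagens went from -0.20 to -0.47, and laminins and integrins from -0.18 to -0.41. The mean difference between genes with and without AATCACA was -0.28, between -0.28 and -0.25 in 3 alternatives, and -0.13 in the coding sequence. Below about 50 counts, 19.3% of genes had a counting interval that excluded 1, and at 5000 or more 88.7%. What a repeat of either transfection would change is unknown.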

Other observations

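The proteasome set of KEGG, chosen after its values were seen, had the next to highest median of the 160 KEGG sets in siERRG3. The proteasome degrades ubiquitinated proteins. Of 40 genes that passed the filter 24 were higher (60.0%, beside 23.2% of all genes) and 2 lower, with a median log2 fold change of 0.35. In siERRG2 6 were higher and 0 lower, beside 16.4% and 19.2% of all genes, with a median of 0.11. PSMC2, an ATPase of the regulatory particle, had 3330 counts in siCont, 5503 in siERRG3 and 4054 in siERRG2. PSMB1, a subunit of the core particle, had 1751, 2736 and 2034 in the same order, and PSMB7, a catalytic subunit, had 3607, 5628 and 3985. PSMD11, of the regulatory lid, had 2975, 4398 and 3196. In these 4 genes siERRG3 was the highest and siERRG2 lay between it and siCont. The 2 lower genes were PSME3, which encodes a nuclear activator of the proteasome, with 6068, 4196 and 7483, and PSMB8, a subunit of the immunoproteasome, with 10, 3 and 12. The summed count of the set was 123956 in siCont, 157392 in siERRG3 and 135611 in siERRG2.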
